A study of Drosophila melanogaster with 2 samples.

Results

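Peaks of the tagged shuttle craft protein (stc) were examined at autosomal promoters whose gene has no partner starting close by in the opposite direction. A peak was taken when its summit lay within 250 bp of an annotated transcription start site (TSS), was not on the X chromosome, and had no TSS of another gene upstream on the opposite strand within 500 bp of any TSS near the summit. Of the 3831 peaks in the list kept between the replicates, 699 met this rule and are called lone promoter peaks here. The rule used position and annotation only. A further 402 autosomal promoter peaks had such a head-to-head neighbour, 133 promoter peaks without one were on the X chromosome, and 2023 autosomal peaks lay outside promoters.

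The peaks came from 1 group with 2 biological replicates of Drosophila melanogaster embryos, whole animals with ages anywhere between 0 and 24 h. The flies carried stc fused to enhanced green fluorescent protein (eGFP), and chromatin sheared to 200 to 800 bp was immunoprecipitated through that tag. The labels do not say which promoter drives the fusion or whether the untagged gene was still present. No control experiment was analysed here, so background at these promoters was not measured, and in whole embryos binding in more cells and more binding per cell cannot be told apart. Replicate 1 had 2782 peaks in its own thresholded list and replicate 2 had 3806. The number of reads behind them is unknown, and values below are the peak signal as the authors deposited it.

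The zinc finger protein stc is the fly relative of human NFX1, a factor first known for binding the X-box of immune gene promoters, and it is required for the motor axons of the fly embryo to find their paths. In the compact fly genome many genes start head to head and share the DNA between their starts, so that position alone does not assign a peak there to one of them. At the promoters described here no start of another gene faces away on the upstream side within 500 bp. The side on which a peak lies was read against the nearest start, though 32 summits lay near TSSs of 2 or 3 genes.

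The DNA under the strongest of these peaks was rich in A and T, and the sequences below show it beside the more mixed DNA under peaks at ribosomal protein genes. Each runs 5′ to 3′ along the strand of its gene, from the dm6 build of the genome (RefSeq Release 6). Capitals mark matches, on either strand, to the 8 words of 6 bases that were most in excess at the summits of all lone promoter peaks. The strongest peaks shown are a selection from the 20 described next, and the ribosomal protein genes were added after their values were seen.
CG14100, chr3L:19590561-19590661, minus strand, 137 to 37 bp upstream of the TSS: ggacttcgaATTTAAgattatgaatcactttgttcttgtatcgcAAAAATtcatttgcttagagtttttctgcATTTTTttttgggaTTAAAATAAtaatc
CG18549, chr3R:12449120-12449220, plus strand, 176 to 76 bp upstream: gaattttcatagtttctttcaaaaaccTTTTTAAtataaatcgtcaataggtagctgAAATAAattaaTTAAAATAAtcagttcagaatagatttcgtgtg
gish, chr3R:16280675-16280775, plus strand, 214 to 114 bp upstream: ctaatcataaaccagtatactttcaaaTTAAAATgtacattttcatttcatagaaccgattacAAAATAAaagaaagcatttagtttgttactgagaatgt
osp, chr2L:14689483-14689583, minus strand, 243 to 143 bp upstream: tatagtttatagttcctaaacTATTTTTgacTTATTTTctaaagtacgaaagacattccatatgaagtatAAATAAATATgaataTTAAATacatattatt
CG11357, chr3L:4541829-4541929, plus strand, 222 to 122 bp upstream: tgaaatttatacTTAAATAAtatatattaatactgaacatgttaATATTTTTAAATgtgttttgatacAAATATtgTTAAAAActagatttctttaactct
Btk, chr2L:8277814-8277914, minus strand, 212 to 112 bp upstream: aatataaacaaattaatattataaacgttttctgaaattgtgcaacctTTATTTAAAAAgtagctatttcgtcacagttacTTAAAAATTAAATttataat
lncRNA:CR31044, chr3R:29214395-29214495, plus strand, 167 to 67 bp upstream: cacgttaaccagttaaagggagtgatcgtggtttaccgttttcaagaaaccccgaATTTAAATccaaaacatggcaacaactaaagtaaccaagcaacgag
RpL23A, chr3L:1668682-1668782, minus strand, 128 to 28 bp upstream: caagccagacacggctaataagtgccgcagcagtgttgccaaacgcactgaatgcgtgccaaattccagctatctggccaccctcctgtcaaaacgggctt
RpL24, chr2L:13395102-13395174, minus strand, 43 bp upstream to 29 bp downstream: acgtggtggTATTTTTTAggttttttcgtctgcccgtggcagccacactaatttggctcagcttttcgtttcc
RpL37A, chr2L:5070892-5070986, plus strand, 65 bp upstream to 29 bp downstream: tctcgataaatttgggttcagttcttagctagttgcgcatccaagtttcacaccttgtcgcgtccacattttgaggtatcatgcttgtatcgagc
In the sequence of CG11357, 33 bases lie in a marked word and 15.8% of the bases are G or C. The sequence of RpL23A holds no marked word and is 54.5% G or C. Both are extremes of their groups. The value of CG11357 is the lowest among the 20 strongest peaks, whose median is 23.8%. That of RpL23A, equal to that of RpS4, is the highest among the 23 ribosomal protein peaks, whose median is 45.5%.

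The 20 strongest lone promoter peaks present in both replicates' own lists had signals from 812 to 1713, against a median of 131 over all 699. All 20 ranked within the first 73 peaks of each replicate, 19 had their summit upstream of the TSS, and 17 had a GC content under 35% within 50 bp of the summit. The strongest was at CG14100 on 3L, 87 bp upstream, with 906 in replicate 1 and 809 in replicate 2. The peak of mRpL41, which encodes a protein of the large subunit of the mitochondrial ribosome, lay 136 bp upstream on 2R, with 947 and 696. These 2 were higher in replicate 1, whereas 15 of the 20 were higher in replicate 2.

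**Figure D1:**
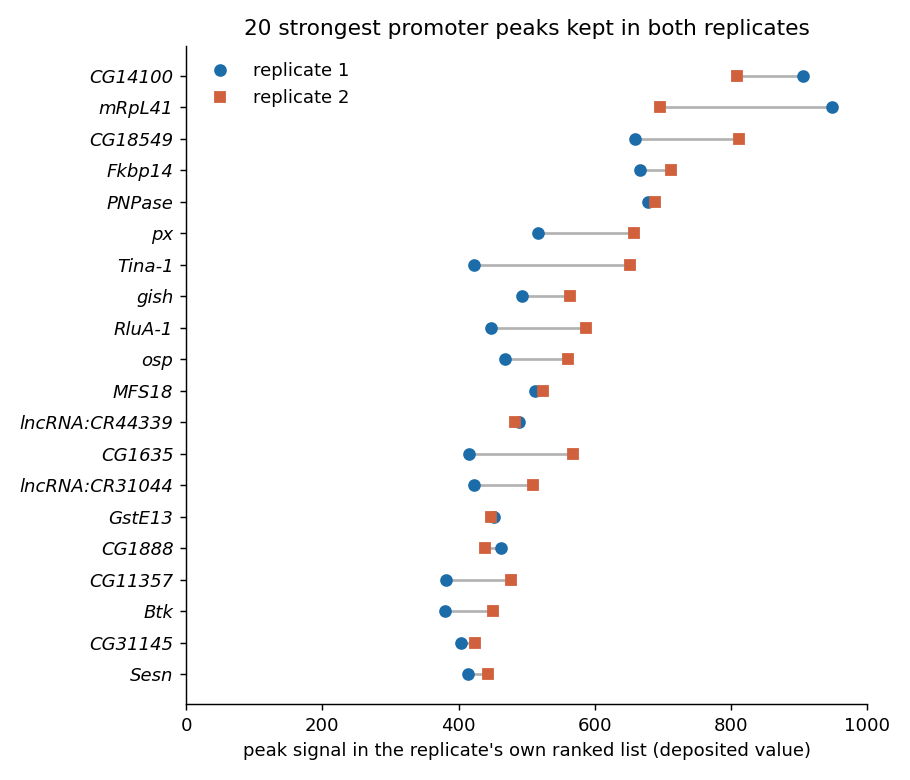
Signal of the 20 strongest lone promoter peaks in each replicate's own ranked list (horizontal axis, deposited value; circles replicate 1, squares replicate 2; the grey line joins them). Values run from 380 at Btk to 947 at mRpL41, and 15 of the 20 peaks were higher in replicate 2.

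CG18549 on 3R had 660 in replicate 1 and 811 in replicate 2, with the summit 126 bp upstream. Fkbp14, a peptidyl-prolyl isomerase of the endoplasmic reticulum, had 667 and 712. PNPase, the mitochondrial polynucleotide phosphorylase, had 678 and 688. All 3 promoters were high in both replicates, and the gap between replicates was widest for CG18549. The peak of px, named for the plexus of extra wing veins in its mutants, had 517 and 657, and that of Tina-1 had 423 and 651. The casein kinase gene gish, which acts in Wingless signalling, had 493 and 563, 164 bp upstream of its TSS. RluA-1, a pseudouridine synthase gene, had 448 and 587, and osp had 467 and 560. In these 5 promoters replicate 2 was the higher.

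Other enzymes and kinases were in the same group. Btk, a non-receptor tyrosine kinase, had 380 in replicate 1 and 450 in replicate 2. Sesn, a stress-induced inhibitor of TOR signalling, had 414 and 443, 225 bp upstream. GstE13, a glutathione S-transferase gene, was the exception in place, with its summit 89 bp downstream of the TSS and signals of 453 and 448. Both non-coding genes of the group had their summit upstream: lncRNA:CR44339 had 489 and 482, and lncRNA:CR31044 had 423 and 510. The remaining 5 were MFS18, CG1635, CG1888, CG11357 and CG31145. The stc gene itself had no peak at its promoter, the nearest summit of the list being 44861 bp from its TSS.

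Summits lay on the upstream side. Of 699, 530 were upstream of the nearest TSS, 75.8% with an exact (Clopper-Pearson) 95% interval of 72.5% to 79.0%, which differs from an even split (exact binomial test over peaks, two-sided, p = 3.19e-44). The median summit was 104 bp upstream. Where the gene that names the peak has a single TSS position, 269 of 340 summits were upstream (79.1%, interval 74.4% to 83.3%). There no alternative start of that gene could be nearer, though a start of another gene could. Peaks are the units of this test, not embryos. The most filled interval of 50 bp was 150 to 100 bp upstream with 137 peaks, and 103 peaks lay between 250 and 200 bp upstream, at the edge that the rule sets. On the other side 79 lay within the first 50 bp of the transcribed part and 12 between 200 and 250 bp.

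The upstream share was 74.6% in head-to-head promoter peaks (300 of 402), an odds ratio of 1.07 with a 95% interval of 0.803 to 1.42 that did not pass Fisher's exact test (p = 0.663 after adjustment). It was 78.2% in the X promoter peaks (104 of 133), an odds ratio of 0.874 with an interval of 0.560 to 1.37 (p = 0.663 after adjustment, same exact test). These intervals leave room for differences in either direction. At a head-to-head pair a summit far upstream of one start can be nearest to the other, which bounds the distances measured there; their median was 79.5 bp upstream. The same limit can lower the upstream share of that class where the starts are close, and its part was not tested. The odds ratio was 6.08 with head-to-head genes defined within 200 bp. With replicate 1's own list it was 1.63 (adjusted p = 0.0344 by Fisher's exact test), and among peaks with an irreproducible discovery rate (IDR) of 0.001 or less it was 1.78 (adjusted p = 0.0505).

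**Figure D2:**
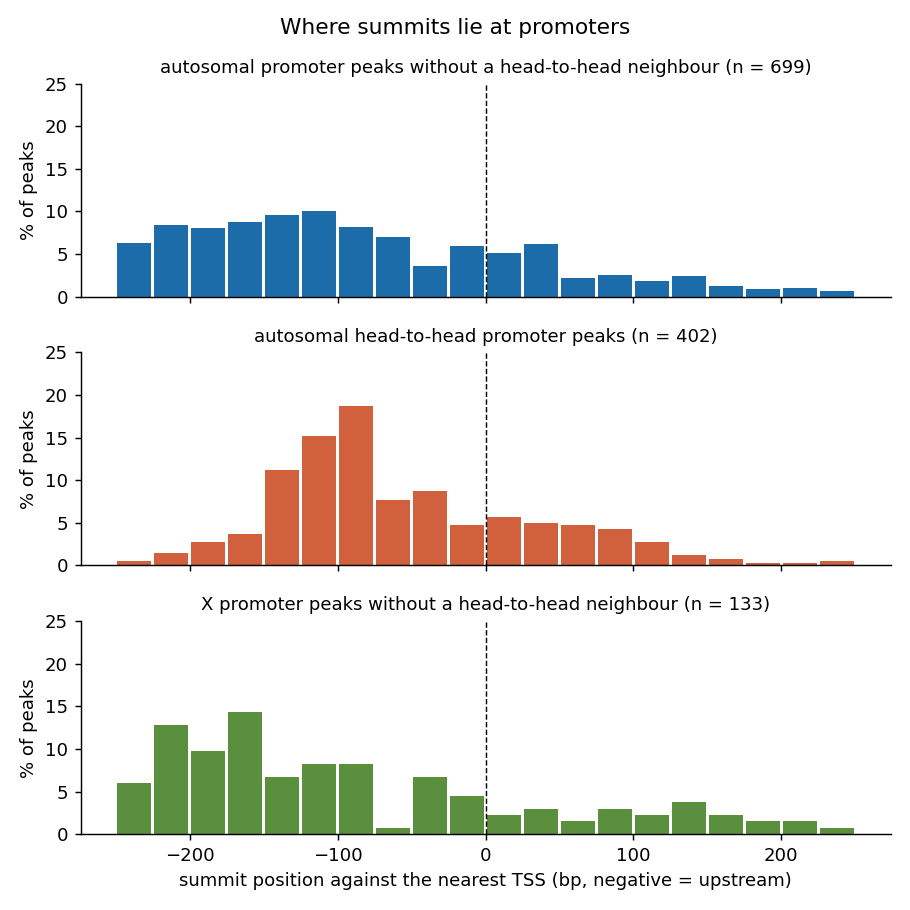
Summit position against the nearest TSS (horizontal axis, bp, negative is upstream) as a share of peaks per 25 bp (vertical axis, %), for lone promoter peaks, head-to-head promoter peaks and X promoter peaks. In all 3 panels most summits lie left of the dashed line at the TSS: 75.8%, 74.6% and 78.2%.

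Stronger peaks lay farther upstream and on DNA with less G and C. In the strongest 175 peaks (median signal 365) 89.1% of summits were upstream, the median summit was 149 bp upstream, and the median GC content within 50 bp was 28.7%. In the next 174 these were 89.1%, 124 bp and 30.2%. In the next 175 they were 69.7%, 71 bp and 42.6%, and in the weakest 175 (median signal 78.0) 55.4%, 21 bp and 46.5%. The weakest 175 thus sat mostly nearer the TSS, on both sides of it. Of these, 33 had a stronger peak within 300 bp, against 1, 3 and 1 in the other groups from the strongest down. The part of such peaks in the position of the weakest group was not tested.

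Across the 699 peaks Spearman's rank correlation was −0.50 between signal and GC content, −0.38 between signal and position, and 0.48 between GC content and position. The points share the same pair of libraries, and the 3 measures move together, so no p is given. The relation was present in each replicate's own signal, with a rank correlation of −0.48 in replicate 1 (666 peaks) and −0.38 in replicate 2 (680 peaks) against GC content. Signal was also compared with either feature roughly held. Among summits more than 100 bp upstream, the 257 with GC under 35% had a median signal of 195 and the 100 with more had 116. Among the rest, from 100 bp upstream to 250 bp downstream, the 89 with GC under 35% had 136 and the 253 with more had 96.1. The part that base composition plays in the signal of a library was not tested.

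**Figure D3:**
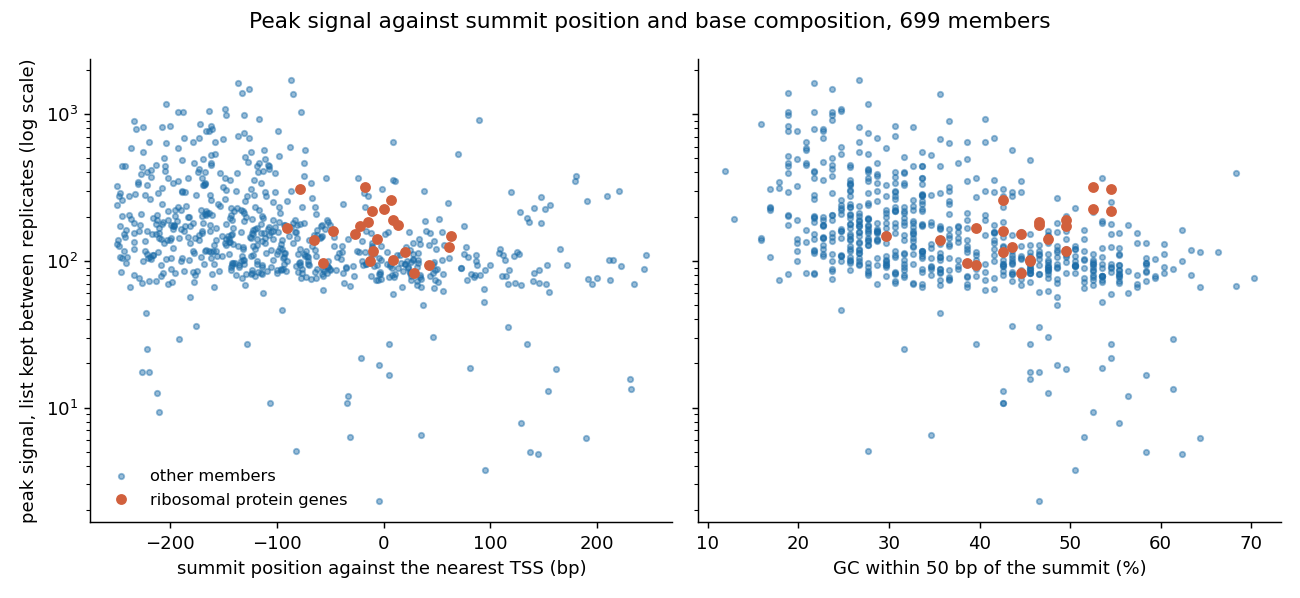
Signal of each of the 699 lone promoter peaks (vertical axis, log scale) against summit position (left, bp from the nearest TSS) and GC content within 50 bp of the summit (right, %); orange points are peaks at cytoplasmic ribosomal protein genes. Signals over 300 lie mostly upstream and at low GC content, and 22 of the 23 ribosomal protein peaks lie at a GC content of 35% or over.

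The GC content was higher downstream of the summit than upstream of it. In stretches of 51 bases along the strand of the gene, the mean over the 699 peaks was 36.8% at 300 bp upstream of the summit. It was 39.4% at 150 bp upstream, 36.7% at the summit and 40.5% at 50 bp downstream. At 100 bp downstream it was 45.7%, staying between 45.7% and 46.6% from there to 400 bp. The summits thus lay, on average, just upstream of a step in base composition. The rule keeps summits within 250 bp of a TSS, and no such profile was made for all promoters. Whether the step is particular to these peaks was not tested. Windows of the same length as those at summits, placed 104 bp upstream of the TSS in all 8891 autosomal protein-coding genes with a start lacking a head-to-head neighbour had a median GC content of 37.6%, against 35.6% at the lone promoter peaks. The medians were 28.7% for head-to-head promoter peaks, 33.7% for X promoter peaks and 31.7% for autosomal peaks outside promoters.

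The 8 words in excess at summits were all runs of A and T. TTAAAA was found within 50 bp of the summit in 219 peaks (31.3%), in 25.2% of windows centred 300 bp upstream and in 11.7% of those 300 bp downstream. It was in 46.9% of the strongest 175 and 15.4% of the weakest. Of the other words, TAAAAA was in 33.3% of summits, AAAATA in 35.6%, ATTTAA in 25.9%, AAAAAT in 33.8%, ATTTTA in 28.8%, AAATAT in 30.04% and AAATAA in 32.5%. Among all 8891 promoters TTAAAA was in 24.5% of windows of the same length. It was in 46.8% of head-to-head summits and in 31.2% of autosomal summits outside promoters, so it did not mark lone promoter peaks among these classes. The words overlap one another, were chosen on these peaks and carry no test.

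Of 15 motifs known from fly promoters and regulatory DNA, searched on both strands, none differed in share between the summit and the window 300 bp upstream after adjustment (exact McNemar tests, Benjamini-Hochberg over 30 tests; 1 had an unadjusted p under 0.05). Against the window 300 bp downstream 4 differed. The TATA core TATAAA, read by the general factor TBP, was in 20.5% of summits and 7.01% of downstream windows (exact McNemar test, adjusted p = 4.80e-12), and in 20.03% of upstream windows. The AT word AATATT was in 13.6% and 7.01% (exact McNemar test, adjusted p = 0.00101). The initiator core TCAGT was in 20.03% and 13.9% (exact McNemar test, adjusted p = 0.0244). The motif of Zelda (CAGGTA), the activator of the early embryonic genome, was rarer at summits, 1.00% against 3.58% (exact McNemar test, adjusted p = 0.0143). The downstream windows have the higher GC content given above, and its part in these differences was not tested. They are also centred past the TSS, since the rule keeps summits within 250 bp of it. The same contrast was not made at all promoters, so whether these differences are particular to the peaks was not tested. TATAAA was also in 26.4% of head-to-head summits, 24.1% of X promoter summits and 22.7% of autosomal summits outside promoters. In the same classes AATATT was in 23.4%, 9.77% and 19.4%.

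The letters GTTGC, part of the X-box from which NFX1 is known in humans, were in 18.7% of summits, 17.7% of upstream windows, 23.6% of downstream windows (exact McNemar test, adjusted p = 0.162) and 17.6% of all promoters. The GAGA element GAGAG, bound by Trl, was in 12.9% of summits, with 4.57% in the strongest 175 and 19.4% in the weakest, against 16.2% of all promoters. TATAAA ran the other way, in 29.1% of the strongest 175 and 11.4% of the weakest, against 16.3% of all promoters. The strongest and weakest groups also differed in median GC content (28.7% and 46.5%) and median summit position (149 and 21 bp upstream). The windows at all promoters were placed 104 bp upstream of the TSS and match neither group. The part of composition and position in these motif shares was not tested. The element TATCGATA, bound by Dref, a transcription factor of replication-related genes, was in 9 summits (1.29%) and in 1.51% of all promoters.

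Against head-to-head promoter peaks 1 of the 15 motifs differed after adjustment. AATATT was in 95 of 699 lone promoter summits and in 94 of 402 head-to-head summits, 13.6% against 23.4%, for an odds ratio of 0.515 (interval 0.376 to 0.707; adjusted p = 6.77e-04 by Fisher's exact test). GAGAG was in 12.9% and 7.71% (odds ratio 1.77; adjusted p = 0.0680 by the same exact test) and TATCGATA in 1.29% and 3.48% (0.361; adjusted p = 0.0783), and neither passed. With replicate 1's own list none passed, and with windows of 100 bp either side 6 did.

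The replicates' own thresholded lists did not hold the same lone promoter peaks. Of the 699, 360 overlapped a peak in both replicates' own thresholded lists by at least 50% of the shorter peak (51.5%, exact interval 47.7% to 55.3%). A further 156 (22.3%) overlapped a peak of replicate 2 only, 47 (6.72%) one of replicate 1 only, and 136 (19.5%) one of neither, although the list kept between the replicates holds them. By strength the share in both was 99.4%, 83.9%, 20.6% and 2.29% from the strongest to the weakest of these 4 groups. Spearman's rank correlation between the signals of the replicates was 0.73 over the 656 peaks with a match in both ranked lists. These peaks were kept because their ranks matched between replicates, so this value describes them and is no evidence of agreement.

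Replicate 2 gave the higher signal at 480 of those 656 peaks, with a median ratio to replicate 1 of 1.24. At GC under 35% it was higher at 221 of 338 (median ratio 1.15), and at 35% or over at 259 of 318 (median ratio 1.37). The replicates' signals are not on a scale known to be common, so neither the ratio nor its difference between the GC groups is a measure of binding. Peaks with more G and C also tended to have lower signal, and the part of signal in that difference was not tested.

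**Figure D4:**
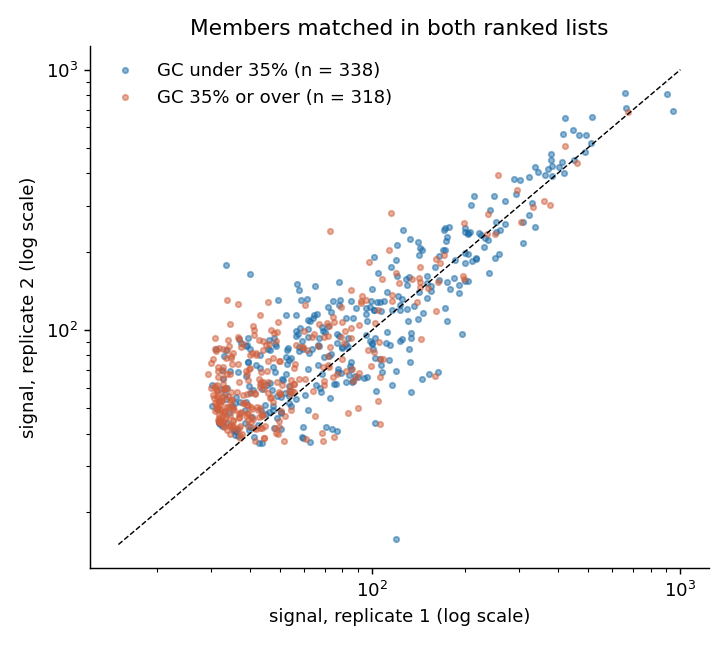
Signal in replicate 1 (horizontal axis) and replicate 2 (vertical axis), both log scales, for the 656 lone promoter peaks matched in both ranked lists; blue, GC under 35% (338 peaks), orange, GC 35% or over (318 peaks); the dashed line is equality. Points gather along the line at high signal and lie mostly above it at low signal, where most orange points are.

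The share found in both lists was lower than for head-to-head promoter peaks, 51.5% against 62.2% (250 of 402), with an odds ratio of 0.646 and an interval of 0.503 to 0.829 (adjusted p = 0.00333 by Fisher's exact test). Median signals moved with it, at 131 and 154, and so did GC content; the part of signal in the difference was not tested. Among peaks with GC under 35% the shares were 70.5% (244 of 346) and 69.2% (200 of 289), and at 35% or over they were 32.9% (116 of 353) and 44.2% (50 of 113). The difference did not pass the exact test with head-to-head genes defined within 200 bp (odds ratio 0.844, adjusted p = 0.714) or within 1000 bp (0.787, adjusted p = 0.261), nor among peaks with an IDR of 0.001 or less, where it turned (1.11, adjusted p = 0.688). Over all alternatives its adjusted p in Fisher's exact test ran from 1.10e-07 to 0.714. The share was 55.6% for X promoter peaks (odds ratio 0.847, interval 0.583 to 1.23, p = 0.663 after adjustment in the same exact test) and 50.1% for autosomal peaks outside promoters (1.06, 0.891 to 1.26, p = 0.663 after adjustment). The last comparison turned with promoters taken within 100 bp of a TSS (0.476, adjusted p = 2.90e-08 by Fisher's exact test) and passed the other way with head-to-head genes within 200 bp (1.22, adjusted p = 0.0321).

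Lone promoter peaks were spread over the autosomes, with 169 on 2L, 178 on 2R, 162 on 3L, 188 on 3R and 2 on 4, and median signals on the long arms from 126 to 138. The nearest gene of a lone promoter peak was the protein-coding one with the closest TSS within 250 bp, else any gene. It was protein-coding in 635 cases. Of 8891 autosomal protein-coding genes with a TSS lacking a head-to-head neighbour, 615 had such a peak within 250 bp, which is 6.92%. The counts for the gene lists below stand against that share, are descriptive and carry no test; the lists were drawn up with earlier results of these peaks known.

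Genes of the cytoplasmic ribosome were the most often bound of the 33 lists. Of 47 with an eligible start, 23 had a lone promoter peak (48.9%), against 6.92% of all. Their signals were moderate, from 82.0 at RpS26 to 317 at RpL30, with a median of 153. RpL30 had 113 in replicate 1 and 203 in replicate 2, RpL23A had 164 and 153, and RpL24 had 122 and 151. Replicate 2 was higher at 16 of the 23, and 17 were in both replicates' own lists.

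These peaks lay close to the start of the gene on DNA of mixed composition. Their median summit was 10 bp upstream of the TSS, and 17 of 23 lay within 50 bp of it, against 120 of 612 (19.6%) other protein-coding lone promoter peaks. Their median GC content was 45.5% (29.7% to 54.5%), against 34.7% for the others. Ribosomal protein genes of flies are known to start at a polypyrimidine initiator. The letters CTTT, starting from 5 bp before to 5 bp after the TSS on the strand of the gene, were found at 10 of the 23 (43.5%), at 14 of all 47 eligible ribosomal protein genes (29.8%), at 34 of the 612 other peaks' starts (5.56%) and at 5.77% of all promoters. This search was chosen after the values were seen, and annotated starts may be off by some bases.

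Translation factors had a peak at 5 of 31 eligible genes. The strongest were eEF1gamma, a subunit of the elongation factor complex, with 198 in replicate 1 and 162 in replicate 2, and eEF1alpha1, which brings aminoacyl-tRNA to the ribosome, with 82.3 and 69.8. The next, eEF5, had 55.6 and 61.9. The mitochondrial ribosome had 1 of 16, the mRpL41 peak described above. None of 14 aminoacyl-tRNA synthetase genes, 25 proteasome genes and 41 oxidative phosphorylation genes had a lone promoter peak, for upper limits of the exact interval of 23.2%, 13.7% and 8.60%. Expression of the genes in these lists was not measured, and its relation to the peaks was not tested.

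Genes of axon guidance had 10 of 35 (28.6%). At trio, which acts in growing axons, the signals were 131 and 108, and at the semaphorin receptor PlexA on chromosome 4 they were 163 and 68.9. At the netrin receptor unc-5 they were 61.2 and 83.7. The median signal of the 10 was 99.8, under the 131 of all lone promoter peaks, and 2 of the 10, trio and PlexA, were in both replicates' own lists. The remaining ones were Nrt, Dscam1, Lar, Ten-m, Sema1a, caps and Sema5c.

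Signalling pathways each gave a few genes. Wingless signalling had 4 of 14, with gish, nkd (172 and 247), a feedback inhibitor, and Apc (39.3 and 67.8), a part of the complex that degrades Armadillo, the strongest. Insulin and TOR signalling had 5 of 20, led by REPTOR, a transcription factor held back by TOR, with 339 in replicate 1 and 424 in replicate 2. The translation repressor Thor had 60.3 and 99.5 and the forkhead factor foxo 46.7 and 84.0. Replicate 2 was the higher at all 5 of these genes.

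Notch signalling had 3 of 21: the corepressor gro (259 and 242), the Notch inhibitor numb (199 and 157) and the gamma-secretase subunit aph-1 (51.4 and 64.2). Ecdysone response genes had 3 of 13, with the transporter E23 at 270 and 314, the nuclear receptor Eip75B at 155 and 142 and the coactivator tai at 30.8 and 84.8. The Hippo list had app and ex (2 of 9), the Dpp and Activin list shn, tkv and ttv (3 of 15), and the Ras list spi and cic (2 of 25). Of these last 7, app and spi were in both replicates' own lists. Hedgehog (0 of 7) and JAK-STAT (0 of 4) gave none, from few eligible genes.

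Glycolysis had 3 of 10, and all 3 were in both replicates' own lists. Eno, the enolase gene, had 217 and 187, Ldh, lactate dehydrogenase, had 151 and 162, and PyK, pyruvate kinase, had 55.8 and 57.7, with summits 208 bp upstream at Ldh and 245 bp upstream at PyK. Heat shock genes had 3 of 23, of which Hsp27 had 361 and 314 and Hsp26 had 121 and 213; the chaperone Gp93 of the endoplasmic reticulum had 59.4 and 38.5. Cell cycle genes had 4 of 24, with the E2F partner Dp (152 and 146), the ribonucleotide reductase subunit RnrS (131 and 84.6) and the helicase subunit Mcm2 (61.0 and 38.1) the strongest.

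Among developmental regulators, muscle and cardiac genes had 5 of 31. The homeobox gene tin, needed for the heart, had 209 and 301 at 206 bp upstream, the titin relative sls had 125 and 131, and Mef2, the muscle transcription factor, had 33.1 and 59.3. Segmentation genes had 3 of 21, nkd with cad (47.7 and 77.9) and bcd, which had 30.6 in replicate 1 and no match in replicate 2. Neuronal and glial fate regulators had 3 of 31, with da at 72.5 and 72.2, vvl at 31.6 and 71.8 and lola at 37.6 in replicate 2 without a match in replicate 1. None of 9 Hox genes and cofactors had one. Nor did any of 14 insulator and promoter architecture genes, 107 cuticle genes and 181 chemoreceptor and odorant-binding genes, for upper limits of 33.6%, 23.2%, 3.39% and 2.02%.

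The last lists stood at 1 to 5 genes. Translational control and mRNA decay had 5 of 34, with the decay factor Smg5 at 161 and 118, mask at 106 and 43.4, and the repressor smg at 37.6 and 88.8. Cytoskeleton and adhesion had 4 of 31, with the spectraplakin shot at 45.8 and 128, the actin regulator WASp at 86.1 and 70.7 and alphaTub84B at 44.3 and 90.9. Chromatin regulators had 2 of 25, the GAGA factor gene Trl (119 and 166) and lolal (44.1 and 63.0). Splicing factors had 2 of 13, B52 (89.8 and 50.3) and Doa (35.3 and 45.1), and the vesicle list had 1 of 25, Sec61beta, at 46.5 in replicate 2 and with no match in replicate 1.

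**Figure D5:**
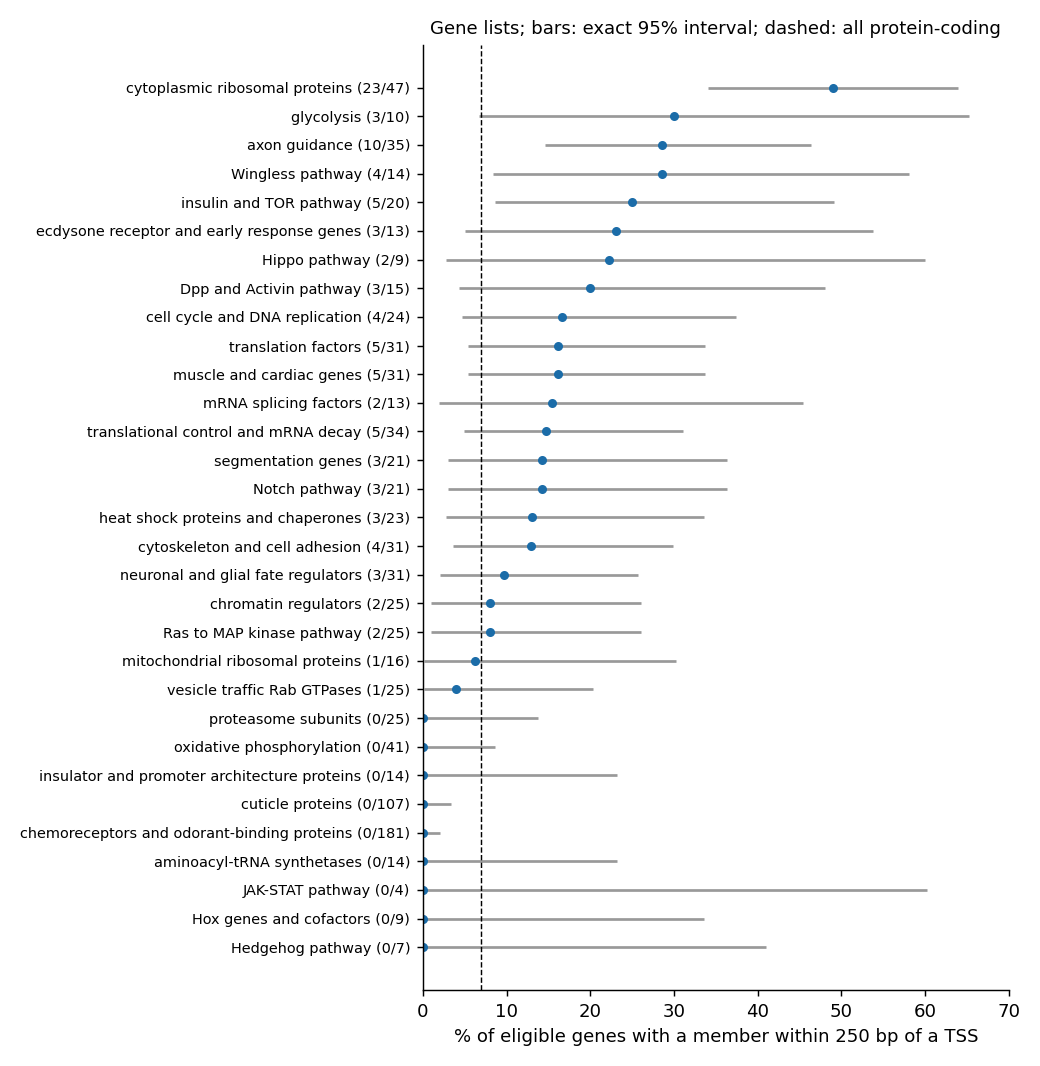
Share of eligible autosomal protein-coding genes in each list that had a lone promoter peak within 250 bp of a TSS (horizontal axis, %; points, with exact 95% intervals as bars; counts in brackets). The dashed line is the 6.92% of all such genes; cytoplasmic ribosomal proteins (23 of 47) stand farthest right, and 9 lists are at 0.

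Genes of other kinds than protein-coding took 64 of the 699 peaks, 58 of them long or other non-coding RNAs. These counts rest on the naming above, which puts protein-coding genes first. Of 3138 autosomal genes of other kinds than protein-coding with an eligible start, 67 (2.14%) had a lone promoter peak. Nuclear tRNA genes had 2 of 213 (0.939%) and snoRNA genes 2 of 221 (0.905%). The stronger snoRNA gene, snoRNA:Psi28S-2949, shares its peak with the start of its host Uhg4, with 142 in replicate 1 and 158 in replicate 2. The median signal of the 58 was 112, against 134 for the protein-coding ones.

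Some of the weakest peaks were second summits beside a stronger one. Of the 32 lone promoter peaks with a signal under 40, 30 had a stronger peak of the list with its summit 199 to 257 bp away, whereas 2 of the 250 peaks from 80 to under 130 did. The 3 weakest were dmGlut (2.31), Ddrgk1 (3.77) and CG5292 (4.85), each with a stronger neighbour at 230, 204 and 223 bp. At dmGlut the list gives 2.31 where the overlapping peak in replicate 2's ranked list has 49.9, and 29 of the 699 had a signal under that of a matched replicate peak, 24 of them beside a stronger summit. In all 38 had a stronger peak within 300 bp. Without such peaks in any class, 661 remained, 77.2% of them upstream, and the odds ratio for presence in both lists against head-to-head peaks was 0.598 (adjusted p = 5.84e-04 by Fisher's exact test), an alternative added after seeing the data.

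At the edges of the rule, trio (241) and Best2 (324) were the last inside, with summits exactly 250 bp upstream. lncRNA:CR31781 (98.8) and Cow (104), at 251 bp, were the first outside. PNPase (1361) and CG5098 (683) were inside with a head-to-head TSS at 505 bp. Pax (468) and Alp12 (61.2), whose starts lie head to head 498 bp apart, were the nearest outside.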

How the data were processed

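ChIP-seq was done on 2 biological replicates of 1 group, per the labels. The authors deposited peak lists whose labels name the dm6 build, and no source used here names their aligner or peak caller. Peak signal was deposited as the authors' caller gave it, with its scaling not stated. The authors also deposited the −log10 of the IDR, a measure of how well the ranks of a peak match between replicates, and all peaks of the conservative list had an IDR of 0.01 or less. Depth is unknown, so no interval on a signal is given.

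TSSs came from Ensembl BDGP6.54 release 115, without transposable elements. Peak ends lay within the RefSeq Release 6 chromosome lengths. Replicate values came from the peak in each replicate's ranked list that overlapped it most, over 50% or more of the shorter of the pair. Eligible genes are autosomal with a TSS lacking a head-to-head neighbour within 500 bp. GC content and motifs used the summit and 50 bp either side. Printed sequences hold at most 30 bases of UTR.

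Python 3 with scipy, whose exact binomial, Fisher and McNemar tests were two-sided, gave the p values, with Benjamini-Hochberg adjustment over 5 comparisons of shares, 30 motif tests against flanks and 15 motif tests between classes. Odds ratios carry Woolf intervals. Peaks are the units, so p values say nothing of the spread between embryos, and intervals cover counting error only. The tests and the rule were tested on simulated data. Of 633 symbols given one by one in the 33 gene lists, 600 matched; other members came from name patterns. Named genes are the 20 strongest peaks present in both replicates' own lists, up to 3 per list, those at the edges of the rule, the 3 weakest and stc; others were named after their values were seen. The rule, lists, motifs and tests were chosen with earlier results of these data known. Alternatives were the TSS distance, the head-to-head distance, protein-coding TSSs, other peak lists, a stricter IDR, the overlap and the motif window.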

Additional observations from a re-analysis of the deposited data

How the results depend on the processing

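The number of lone promoter peaks was 288 within 100 bp of a TSS and 369 at an IDR of 0.001 or less, and 445 to 889 in a single replicate's own list. The upstream share stayed over 50% past the test in each alternative run. It was lowest, at 60.4%, within 100 bp of a TSS, and was 69.1% to 87.2% in single replicates. The upstream odds ratio against head-to-head peaks, not past the test in the main comparison, was 0.749 within 100 bp, 0.982 with pairs within 1000 bp, 0.931 with protein-coding TSSs, 1.78 at the stricter IDR, 6.08 with pairs within 200 bp (past the test), and 0.996 to 1.63 in single replicates, of which 1.63 passed. Against X peaks it was 1.08 with pairs within 200 bp, 1.43 at the stricter IDR, and 0.534 (past the test) to 1.07 in single replicates. The share in both lists was 35.1% within 100 bp, 36.1% in the larger list, 90.2% at the stricter IDR and 45.8% at 90% overlap. Its odds ratio against head-to-head peaks was 0.844 (200 bp pairs), 0.787 (1000 bp pairs) and 1.11 (stricter IDR); against X peaks it was 1.77 at the stricter IDR; against autosomal peaks outside promoters it was 0.476 within 100 bp (past the test), 1.22 with 200 bp pairs (past the test) and 0.937 in the larger list. Motifs differing from the flanks numbered 4, and 9 with the 100 bp window and 8 to 9 in single replicates; between classes they numbered 1, and 6, 3 in the larger list and 0 to 2. The causes were not tested. Of 117 values under alternatives, 73 were labelled the same, for direction and side of the threshold or for size. For the number of peaks that label was wide, taking in 569 with pairs within 1000 bp and 998 in the larger list, against 699. No paired analysis was possible because there is 1 group.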

Other observations

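Lone promoter peaks were not limited to the first start of a gene. The nearest gene had a single TSS position for 340 of the 699, and for 153 the peak was at the start farthest 5′ of several. For 166 the nearest TSS lay more than 500 bp inside the gene, counted from the start farthest 5′, and their median signal was 137, against 134 for the 153. At 87 peaks the summit lay inside another protein-coding gene, among them lncRNA:CR46036 inside osa, with 382 in replicate 1 and 389 in replicate 2.

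The 699 peaks had 652 different nearest genes, of which 42 had 2 or more peaks. In 23 of the 42 all summits lay within 300 bp, and in 19 they were farther apart. RapGAP1, a GTPase-activating protein gene, had peaks 46093 bp apart, both at internal starts, with 253 and 238 in replicates 1 and 2 at the one farther inside and 79.6 and 86.0 at the other. At numb the internal start had 199 and 157, and the start farthest 5′, 12137 bp away, had 33.0 and 48.4. At gro the peak at a start 905 bp inside the gene had 259 and 242, and the one 71 bp upstream of the start farthest 5′ had 46.8 and 55.2. At shep, by contrast, the peak at the start farthest 5′ had 143 and 153, and the internal one had no match in either ranked list. Of the 19 genes, 5 had their strongest peak at the start farthest 5′, 7 had it at an internal start with a weaker peak at the start farthest 5′, and 7 had no peak at the start farthest 5′. The genes named here were chosen after their values were seen.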
